A study of Mus musculus with 6 samples.

Results

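Lipoprotein lipase (LPL), its inhibitor ANGPTL4 and 7 further genes of lipid delivery and uptake were followed in mouse kidney cortex with and without the receptor for the complement fragment C3a. The 9 genes, Lpl, Angptl4, Gpihbp1, Lmf1, Cd36, Vldlr, Mfsd2a, Fabp3 and Fabp4, were taken by their names in the array files, and every transcript probe carrying such a name was kept. This gave 18 of 56605 distinct transcript probes, and 9 of 37074 distinct gene names. The genes were chosen because earlier results of the same comparison were known, so their differences, the errors of these and whether they pass the threshold used for all probes are given as a description, with no p and as support for nothing.

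RNA of the renal cortex was measured on 6 one-colour Agilent arrays, 3 labelled C3aR-/- control and 3 labelled WT control. Both groups were male and labelled C57BL/6, while the treatment protocol names C57BL/6J, and whether the genotypes share a substrain is not stated. Per the labels, control mice were put at 8 weeks of age on chow that drew 10% of its energy from fat, were injected with vehicle where diabetic mice received streptozotocin, and were killed 20 weeks after induction. The C3aR-/- mice lack the C3a receptor, and nothing in the labels or files tells how the allele was made. Diabetic mice were not analysed here. The labels do not state that each array was a separate animal, so errors and p-values reflect only how far these samples differ from each other, which may be technical.

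LPL sits on the inner wall of capillaries and splits the triglyceride of circulating lipoproteins into fatty acids. It is matured in the endoplasmic reticulum with the help of LMF1, is carried across the endothelial cell and held at its surface by GPIHBP1, and is inactivated by ANGPTL4, which many tissues make during fasting. Fatty acids and particle remnants then enter cells through CD36 and VLDLR, lysophosphatidylcholine through the sodium-dependent transporter MFSD2A, and fatty acids are carried inside the cell by FABP3 and FABP4. The kidney cortex, rich in proximal tubules, takes up and burns much fatty acid.

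The array carried 6 probes for Lpl, all on the plus strand of chromosome 8 (mm9), and they did not respond alike. Of these, 3 probes at the lower coordinates were annotated to cDNA clones or an Ensembl transcript of Lpl, and the other 3 to the RefSeq mRNA NM_008509. They are called the 5′-side probes and the mRNA probes from here on. The sequences of the 5′-side probes and of 2 mRNA probes are shown because the direction of the difference depends on which of them is read. All letters are in lower case, 5′ to 3′, since no motif is marked.
Lpl, AK154419 at 1082: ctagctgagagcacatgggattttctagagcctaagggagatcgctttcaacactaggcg
Lpl, AK170106 at 3736: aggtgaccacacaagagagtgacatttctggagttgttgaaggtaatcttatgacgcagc
Lpl, ENSMUST00000101463 at 2153: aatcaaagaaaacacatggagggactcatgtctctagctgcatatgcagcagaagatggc
Lpl, NM_008509 at 830: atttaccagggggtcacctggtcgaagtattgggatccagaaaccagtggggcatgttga
Lpl, NM_008509 at 1340: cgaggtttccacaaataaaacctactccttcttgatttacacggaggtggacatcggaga

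From 5′ to 3′ along the locus, the 5′-side probes lie at chr8:71405538-71405597, chr8:71408343-71408402 and chr8:71413311-71413370, and the mRNA probes at chr8:71419652-71419711, chr8:71425050-71425109 and chr8:71430267-71430326. The 5′-side probes span 7833 bases and the mRNA probes 10675 bases, with 6281 bases between the sets. Along the mRNA the probes at 830 and 1340 are 510 bases apart but 5398 bases apart in the genome, and those at 1340 and 3484 are 2144 bases apart but 5217 in the genome, so each pair has intronic sequence between its members. Both AK clones are described in the array files as cDNAs from CD11c+ dendritic cells of NOD-derived mice. No annotation used here places the 5′-side probes in exons or introns, and whether their sequences match only Lpl was not tested. GC content was 45% to 50% in the 5′-side probes and 43.3% to 51.7% in the mRNA probes.

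Levels below are the log2 of the scanner's background-subtracted signal minus the log2 of that array's 75th percentile, so 0 is the signal that 75% of transcript spots fall below. A level depends on the probe as well as on the RNA, so levels of different probes are not compared. Differences are C3aR-/- minus WT with a standard error (SE) and, where given, a 95% interval from a limma fit over the 30930 probes that exceeded background clearly in every array of one or both genotypes. A probe is said to have passed when its p, adjusted by Benjamini-Hochberg over all 30930 probes, was under 0.05. All 18 probes of the 9 genes were well above background on all 6 arrays.

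At the 5′ side of the locus, the signal of the probes annotated to Lpl was much higher in C3aR-/- cortex. The probe at 1082 of AK154419 read 1.01, 0.25 and 1.19 in C3aR-/- replicates 1 to 3, against -2.76, -2.13 and -3.44 in WT replicates 1 to 3. Before scaling these were processed signals of 1434, 984 and 1680 in C3aR-/- cortex, against 101, 151 and 63.2 in WT cortex. The genotypes were separated by a wide gap, and the difference was 3.59 (SE 0.39, interval 2.65 to 4.54), or 12.1-fold.

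The probe at 3736 of AK170106 behaved in the same way, at 1.56, 0.68 and 1.84 in C3aR-/- cortex, against -2.46, -1.60 and -3.09 in WT cortex. Its difference of 3.74 (SE 0.45, interval 2.64 to 4.84), or 13.4-fold, was the largest of the 18 probes. The probe at 2153 of ENSMUST00000101463, the one nearest to the mRNA probes, read -0.59, -1.26 and -0.25 in C3aR-/- cortex, against -2.66, -2.40 and -3.12 in WT cortex. Its difference of 2.03 (SE 0.30, interval 1.30 to 2.76), or 4.07-fold, was smaller, and here too no C3aR-/- array overlapped a WT array. Each of the 5′-side probes passed on the higher side.

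The mRNA probes lay on the other side of 0. The probe at 830 of NM_008509 read 0.72, 0.79 and 1.08 in C3aR-/- cortex, against 1.55, 1.21 and 1.23 in WT cortex, a difference of -0.47 (SE 0.14, interval -0.80 to -0.14). All 3 C3aR-/- arrays were below all 3 WT arrays, but the probe did not pass.

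At 1340 of NM_008509 the levels were 3.26, 3.29 and 3.56 in C3aR-/- cortex, against 4.06, 3.81 and 3.43 in WT cortex. Here the genotypes overlapped, because C3aR-/- replicate 3 exceeded WT replicate 3, and the difference of -0.40 (SE 0.18, interval -0.83 to 0.03) did not pass. The probe at 3484, at the 3′ end of the mRNA, read 5.23, 5.20 and 5.60 in C3aR-/- cortex, against 6.02, 5.86 and 5.80 in WT cortex. It passed on the lower side with a difference of -0.55 (SE 0.13, interval -0.86 to -0.24), or 1.46-fold lower, and no array overlapped.

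The 5′-side probes thus gave 4.07-fold to 13.4-fold higher signal in C3aR-/- cortex, and the mRNA probes 1.32-fold to 1.46-fold lower signal, with 1 of these 3 past the threshold. In a bulk sample, fewer cells of a type and less RNA per cell cannot be told apart, and this holds for every difference given here. All C3aR-/- arrays were on 1 slide and all WT arrays on another, and the scan dates divided in the same way. Slide and scan therefore cannot be told apart from genotype either.

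**Figure D1:**
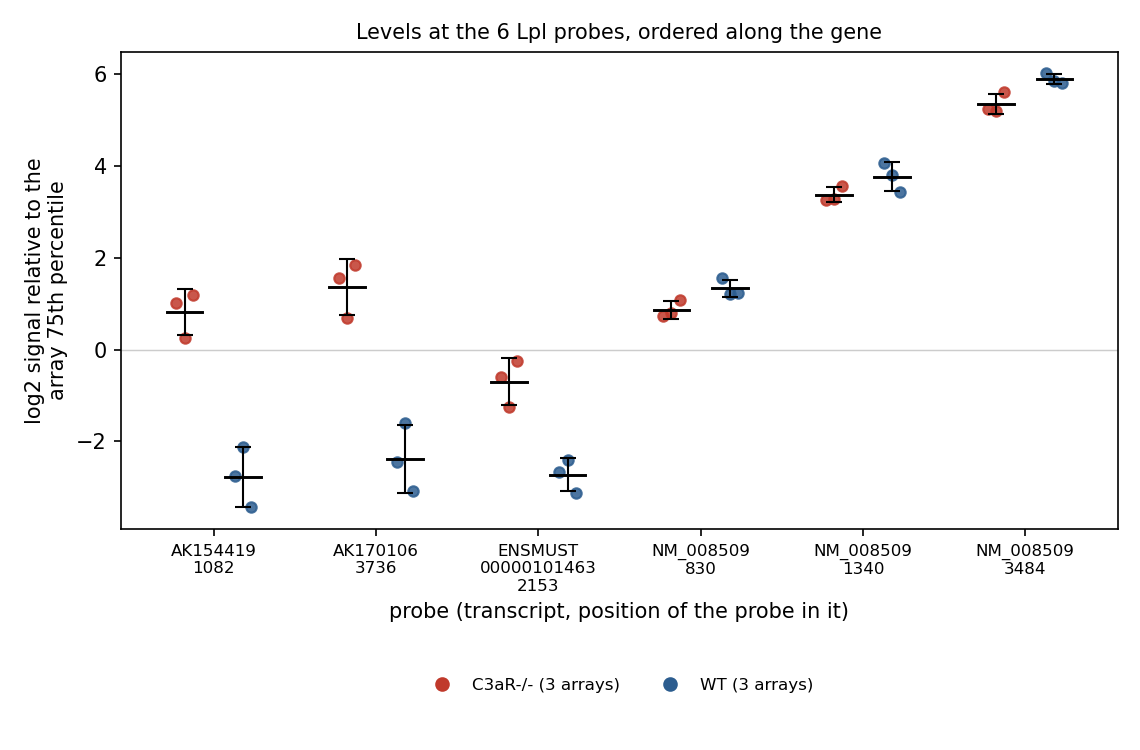
Level as log2 signal over the array's 75th percentile (vertical axis) at the 6 Lpl probes, in their order along the gene (horizontal axis), with 1 point per array, a bar at the mean and whiskers of 1 SD over 3 arrays. At the 3 probes on the left the C3aR-/- arrays lie above all WT arrays, and at the 3 NM_008509 probes the C3aR-/- mean lies below the WT mean.

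The spread within a genotype also differed between the sets of Lpl probes. At the 5′-side probes the SD over 3 arrays was 0.50 to 0.60 in C3aR-/- cortex and 0.36 to 0.75 in WT cortex, while at the mRNA probes it was 0.17 to 0.22 in C3aR-/- cortex and 0.11 to 0.32 in WT cortex. Among the C3aR-/- arrays replicate 2 was lowest and replicate 3 highest at all of the 5′-side probes, by -0.57, -0.68 and -0.56 and by 0.38, 0.48 and 0.45 from the C3aR-/- mean. Among the WT arrays replicate 2 was highest and replicate 3 lowest at the same probes.

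The neighbours of Lpl did not share the large difference. Within 500 kb on either side of the Lpl probes, 28 probes of other names were on the array, none of them between the outermost Lpl probes, and 17 were tested. None passed on the higher side, and 2 passed on the lower side, a probe of Ints10, a subunit of the Integrator complex, with a difference of -0.59 and the zinc finger gene Zfp930 with -0.36. The 17 differences ran from -1.32 to 0.27.

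**Figure D2:**
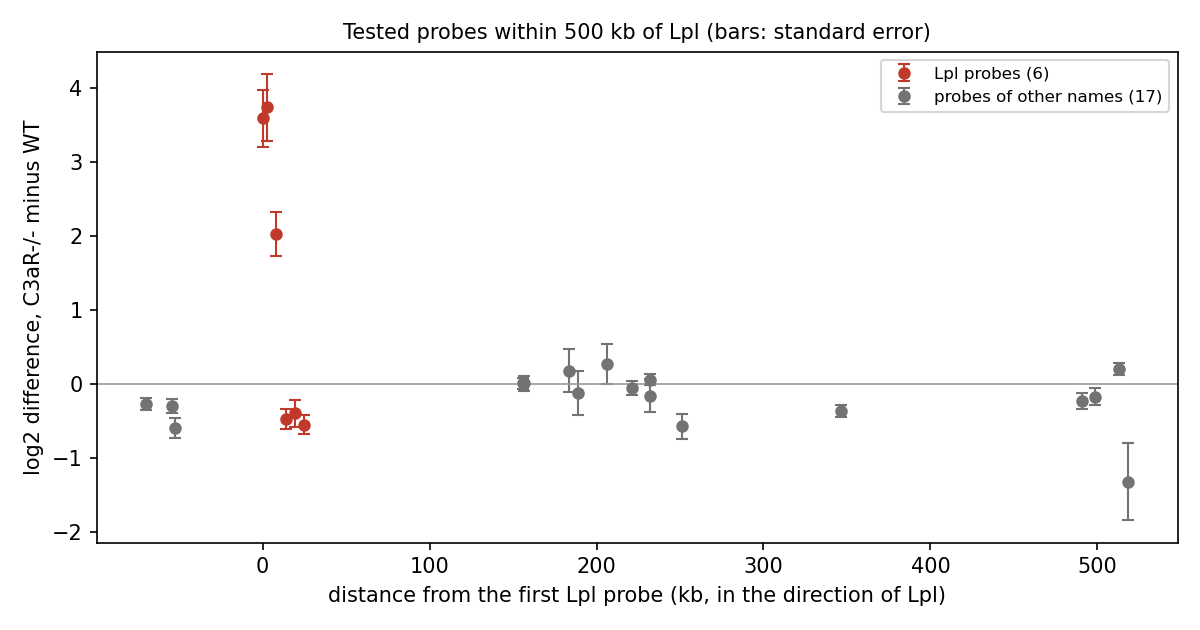
Difference in log2 signal, C3aR-/- minus WT, with its standard error (vertical axis) against distance from the first Lpl probe in kb (horizontal axis) for the 6 Lpl probes and the 17 tested probes of other names within 500 kb. The 3 Lpl probes at the left of the locus stand at 2.03 to 3.74, and no other tested probe in the window exceeds 0.27.

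ANGPTL4 is a secreted protein that inactivates LPL by unfolding it. Its single probe, at 1808 of NM_020581 (chr17:33911880-33911939, minus strand), read 4.57, 3.69 and 5.18 in C3aR-/- cortex, against 3.09, 2.75 and 2.88 in WT cortex. Every C3aR-/- array lay above every WT array, with C3aR-/- replicate 2 closest to the WT range. The difference was 1.58 (SE 0.36, interval 0.69 to 2.47), or 2.99-fold, and the probe passed. The SD was 0.75 in C3aR-/- cortex and 0.17 in WT cortex (n = 3 each). With each array left out in turn the difference ran from 1.23 to 1.97 and passed once in 6, with C3aR-/- replicate 2 left out.

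GPIHBP1 is the endothelial protein that carries LPL to the capillary lumen and holds it there. Its probe, at 637 of NM_026730 (chr15:75428484-75428543, plus strand), read 1.30, 1.39 and 1.52 in C3aR-/- cortex, against 1.0, 1.1 and 1.03 in WT cortex. The arrays did not overlap, and the difference of 0.36 (SE 0.08, interval 0.17 to 0.56), or 1.29-fold, passed. It did not pass when any of the 6 arrays was left out.

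Gpihbp1 and much of the Fabp4 of a kidney are made by endothelial cells, so markers of that cell type are given beside them. Of 10 endothelial markers tested, 3 passed on the higher side, Pecam1 (0.51), Plvap (0.42) and Tie1 (0.39), and 1 on the lower side, Kdr (-0.53). Their signals summed over the list, in multiples of the array's 75th percentile, came to 65.3 to 71.3 in C3aR-/- cortex and 64.9 to 70.4 in WT cortex. These ranges overlap, but most of the sum comes from Egfl7, Flt1, Plvap and Emcn, so it says little of the dimmer markers Pecam1 and Tie1. The part of endothelial RNA in the Gpihbp1 and Fabp4 differences was not tested.

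LMF1 is the endoplasmic reticulum protein needed to fold LPL into its active form, and its gene showed small differences. The probe at 455 of NM_029624 (chr17:25722737-25722796, plus strand) read -2.24, -2.30 and -2.16 in C3aR-/- cortex, against -2.36, -2.49 and -2.64 in WT cortex, a difference of 0.26 (SE 0.09, interval 0.04 to 0.49). The probe at 1695 (chr17:25799606-25799665) read 3.07, 3.06 and 3.09 in C3aR-/- cortex, against 2.99, 2.98 and 3.02 in WT cortex, a difference of 0.08 (SE 0.06, interval -0.06 to 0.22). Neither probe passed, although at both of them all C3aR-/- arrays were above all WT arrays.

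CD36 is a scavenger receptor that takes up long-chain fatty acids. Its probe, at 2390 of NM_007643 (chr5:17288600-17288659, minus strand), read 3.47, 3.43 and 3.72 in C3aR-/- cortex, against 3.65, 3.88 and 3.65 in WT cortex. The genotypes overlapped, and the difference of -0.19 (SE 0.11, interval -0.46 to 0.08) did not pass.

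VLDLR binds triglyceride-rich lipoproteins and works beside LPL at the capillary wall. At 3628 of NM_013703 (chr19:27324042-27324101, plus strand) it read 3.59, 3.65 and 3.70 in C3aR-/- cortex, against 3.80, 3.76 and 3.73 in WT cortex, a difference of -0.12 (SE 0.06, interval -0.27 to 0.04). At 7955 (chr19:27328369-27328428) it read 1.61, 1.63 and 1.77 in C3aR-/- cortex, against 1.84, 1.84 and 1.85 in WT cortex, a difference of -0.17 (SE 0.07). Both probes were lower in every C3aR-/- array than in any WT array, and neither passed.

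MFSD2A carries lysophosphatidylcholine, the form in which long polyunsaturated fatty acids such as docosahexaenoic acid enter the brain, into cells. Its probe, at 2002 of NM_029662 (chr4:122624182-122624241, minus strand), read -1.42, -2.02 and -0.93 in C3aR-/- cortex, against 1.03, 0.59 and 0.68 in WT cortex. The processed signals behind these were 267, 204 and 386 in C3aR-/- cortex, against 1392, 998 and 1100 in WT cortex. The genotypes lay far apart, the difference was -2.22 (SE 0.28, interval -2.91 to -1.53), or 4.67-fold lower, and the probe passed. It also passed with any of the 6 arrays left out, with differences from -2.48 to -1.94.

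The order of the C3aR-/- arrays was the same for Mfsd2a as for Angptl4 and the 5′-side Lpl probes, with replicate 2 lowest (-0.57 from the C3aR-/- mean) and replicate 3 highest (0.53). For Angptl4 these deviations were -0.79 and 0.70. Lpl at 3484, Cd36 and Lmf1 at 455 showed this order too, with smaller deviations of -0.14 and 0.25, -0.11 and 0.18, and -0.07 and 0.08. So did Lmf1 at 1695, at 3.07, 3.06 and 3.09. The C3aR-/- array with the most Angptl4 signal also had the most Mfsd2a signal, whereas between the genotypes their differences had opposite signs. A shared top array is not particular to these genes. Replicate 3 was the highest C3aR-/- array at all probes except both of Fabp3 and Fabp4 at 75. With 3 arrays a genotype this order is a description only.

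The promoter of Mfsd2a is shown because it is the only one of a passing gene in the RefSeq promoter table used (GRCm38.p6). The window runs from 250 bases before to 50 bases after the start, chr4:122961139-122961438 on the minus strand. Capitals mark AGGTCA, the half-site bound by many nuclear receptors, at position 38, and ATTGG, the CCAAT box read on the other strand, at position 197.
Mfsd2a promoter: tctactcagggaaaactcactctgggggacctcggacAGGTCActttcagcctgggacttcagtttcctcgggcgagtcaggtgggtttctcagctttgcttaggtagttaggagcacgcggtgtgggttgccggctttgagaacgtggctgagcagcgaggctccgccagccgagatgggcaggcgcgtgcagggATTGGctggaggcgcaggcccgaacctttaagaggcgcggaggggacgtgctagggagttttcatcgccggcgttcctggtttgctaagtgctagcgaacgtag

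Of all 32851 promoters in that table, 16.3% held AGGTCA and 37.4% held ATTGG, counted on both strands, so neither match is rare. The direct repeat AGGTCANAGGTCA, bound by PPAR with RXR and made of a pair of AGGTCA half-sites, was in 0.0396% of promoters and not in the window of Mfsd2a. Of the 9 genes, 5 had an entry, namely Mfsd2a, Fabp3, Cd36, Lmf1 and Vldlr, the last with a pair of starts. The window of Cd36, which did not pass, also held both AGGTCA and ATTGG, and the direct repeat was in none of the 6 windows. So rare an exact match would be missing from nearly any 6 windows, so nothing is read from its absence. Lpl, Angptl4, Gpihbp1 and Fabp4 are missing from the table.

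FABP3 is the fatty acid carrier of heart and muscle. Its probes at 575 and 584 of NM_010174 (chr4:129992643-129992702 and chr4:129992652-129992711, plus strand) overlap by 51 bases and read nearly the same stretch. The probe at 575 read 4.11, 4.24 and 4.08 in C3aR-/- cortex, against 4.11, 4.07 and 4.15 in WT cortex, a difference of 0.03 (SE 0.07, interval -0.14 to 0.20). The probe at 584 read 3.93, 4.16 and 3.96 in C3aR-/- cortex, against 3.93, 3.91 and 3.92 in WT cortex, a difference of 0.09 (SE 0.08, interval -0.10 to 0.29). The genotypes overlapped at both and neither passed. Of the muscle markers, Tnnt2, Mb and Myl3 were not well above background on any array, and 4 of 10 were tested, of which 1, Tnnt3 (0.80), passed on the higher side. The summed level of that list was 0.519 to 0.628 in C3aR-/- cortex and 0.598 to 0.704 in WT cortex. The WT sums include Ckm in replicate 2 (0.153) and Myl2 in replicate 3 (0.13), each well above background on only 1 array.

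FABP4 is the fatty acid carrier of fat cells, and is also made by capillary endothelium and macrophages. Its probe near the 5′ end of NM_024406, at 75 (chr3:10208442-10208501, minus strand), is shown because it passed while the probe further along the mRNA did not.
Fabp4, NM_024406 at 75: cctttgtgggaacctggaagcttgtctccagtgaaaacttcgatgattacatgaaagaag
It read -0.16, 0.06 and 0.04 in C3aR-/- cortex, against -0.94, -0.62 and -0.64 in WT cortex, a difference of 0.71 (SE 0.11, interval 0.43 to 0.99), or 1.64-fold. The probe at 472 (chr3:10204452-10204511) read 3.15, 3.26 and 3.36 in C3aR-/- cortex, against 2.71, 3.05 and 2.98 in WT cortex. Its difference of 0.34 (SE 0.11, interval 0.07 to 0.61), or 1.26-fold, had the same sign but did not pass. The arrays of the genotypes overlapped at neither probe.

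Fat cells also make Lpl, Fabp4 and Angptl4. Of 10 white adipocyte markers, Adipoq, Plin1, Cfd, Retn and Adrb3 were not well above background on any array, 3 were tested and 0 passed. Their summed level, in multiples of the 75th percentile, was 3.26 to 6.67 in C3aR-/- cortex and 6.70 to 9.96 in WT cortex, mostly from Car3, which is made in other tissues too. Of 6 brown adipocyte markers, Ucp1, Elovl3, Cox8b and Dio2 were not well above background, 2 were tested and 0 passed. Their sums were 0.723 to 0.933 in C3aR-/- cortex and 0.775 to 0.901 in WT cortex, mostly from Cpt1b. The part of fat cell RNA in the differences was not tested beyond these values.

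Macrophages also make Lpl and Fabp4. All 10 macrophage markers were tested by their brightest probes and all had differences below 0, but only Cd68 (-0.58) passed. Itgam (-0.63) had a larger difference than Cd68, with no overlap of the arrays, but did not pass. Fcgr1 (-0.001), Lyz2 (-0.04) and C1qa (-0.05) lay close to 0. Other probes of Lyz2 (0.22) and Cx3cr1 (0.02) were above 0, and those of Csf1r (-0.68) and Cd68 (-0.64) below. At Adgre1 (0.12) and Lyz2 (3.61), among others, C3aR-/- replicate 2 exceeded every WT array. The sums were 18.4 to 27.6 in C3aR-/- cortex and 23.3 to 26.4 in WT cortex. The part of macrophage RNA in the Lpl and Fabp4 differences was not tested.

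**Figure D3:**
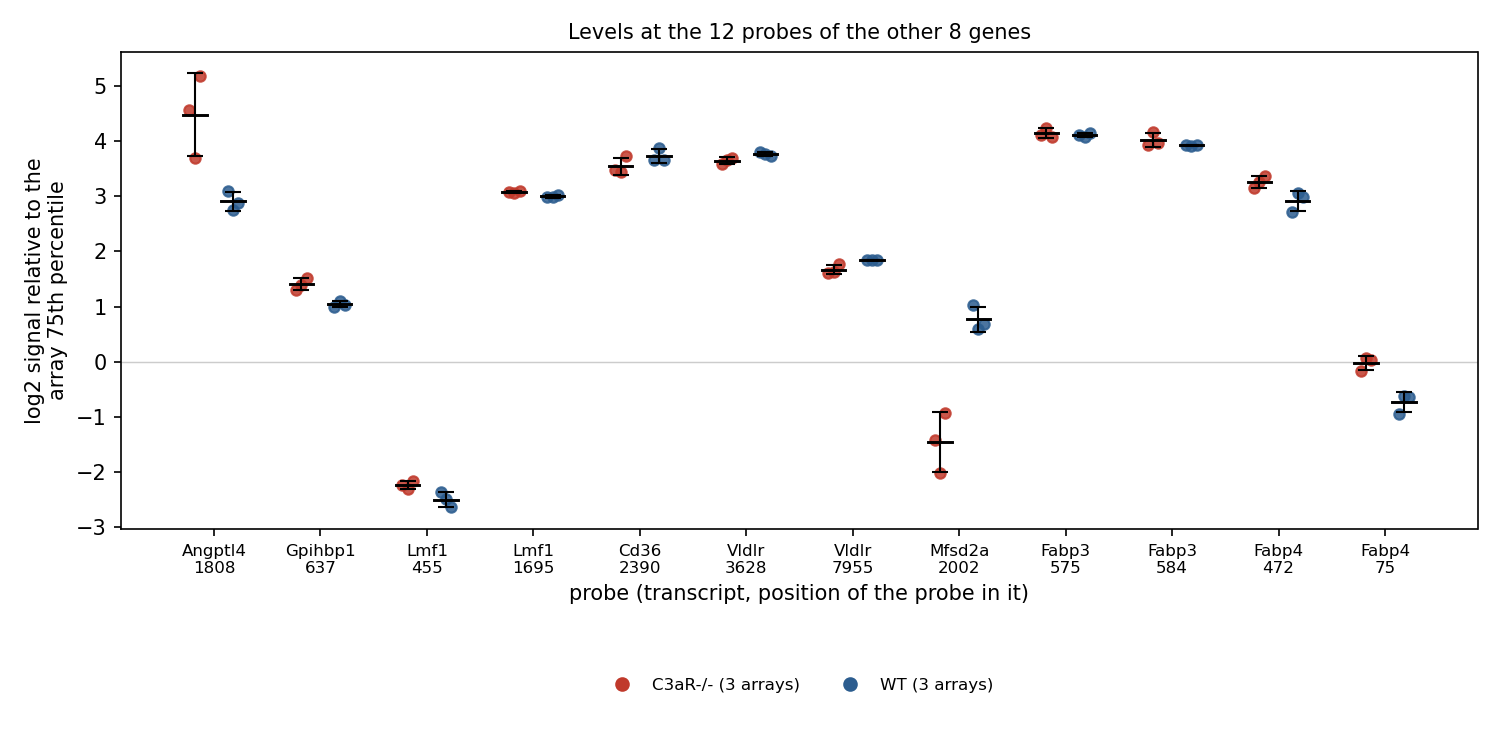
Level as log2 signal over the array's 75th percentile (vertical axis) at the 12 probes of the other 8 genes, each named with the probe's position in its transcript (horizontal axis), with 1 point per array, a bar at the mean and whiskers of 1 SD over 3 arrays. The arrays separate at Angptl4, higher in C3aR-/- cortex with replicate 2 at 3.69 nearest to the WT arrays, and more widely at Mfsd2a, lower in C3aR-/- cortex, and they overlap at Cd36 and at both Fabp3 probes.

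Counted together, 8 of the 18 probes passed, 6 on the higher side (3 of Lpl, and those of Angptl4, Gpihbp1 and Fabp4 at 75) and 2 on the lower side (Lpl at 3484 and Mfsd2a). Of all 30930 probes tested, 11.7% passed, 6.18% higher and 5.49% lower. The arrays of the genotypes did not overlap at 14 of the 18 probes, 9 higher and 5 lower, and at 39.6% of all probes tested. The genes were chosen on this comparison, so nothing is read from these shares. With each array left out in turn, the Lpl probes at 1082 and 3736 and the Mfsd2a probe passed in 6 of 6 fits, Lpl at 2153 and Fabp4 at 75 in 3, Lpl at 3484 and Angptl4 in 1, and Gpihbp1 in 0. The median difference was 0.08 over the 18 probes and 0.03 over all probes tested.

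**Figure D4:**
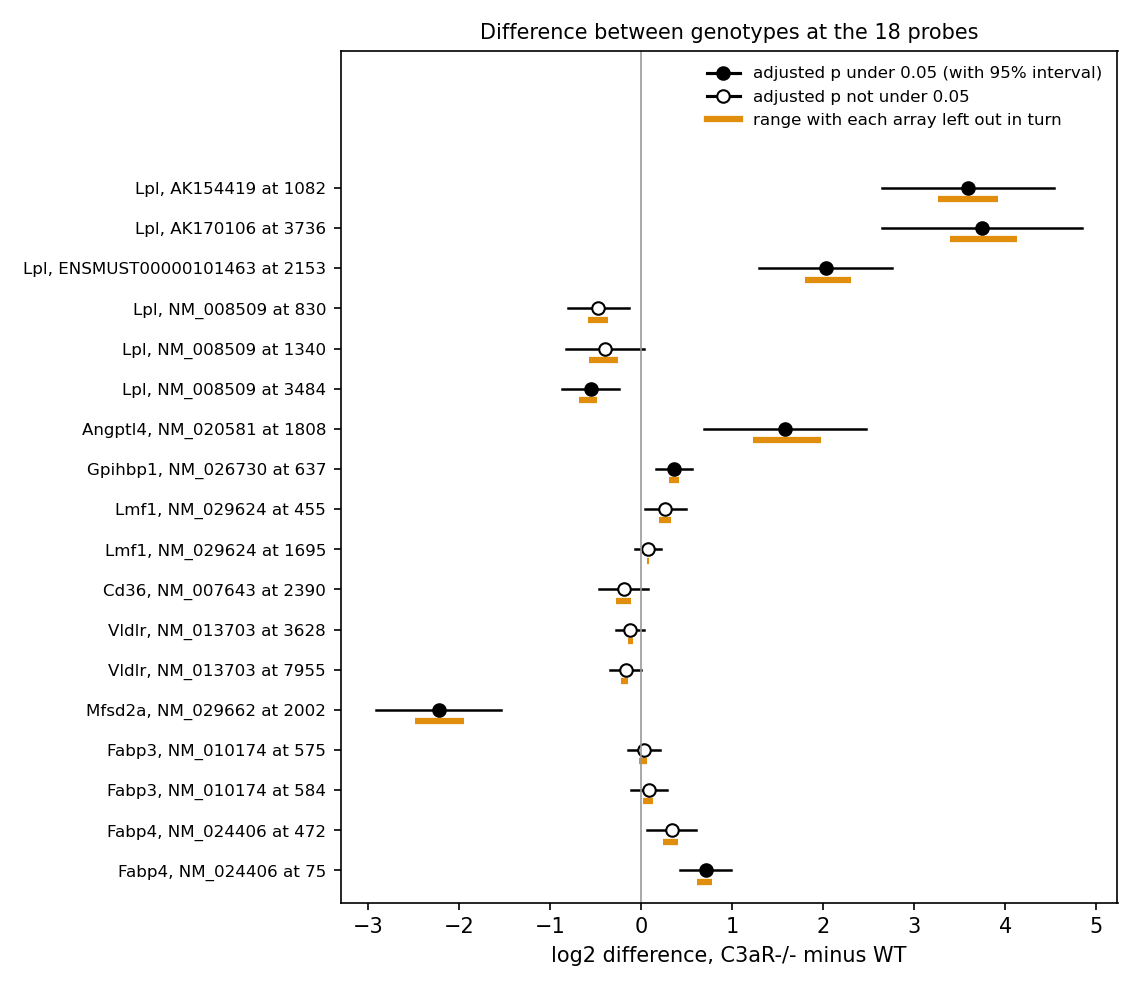
Difference in log2 signal, C3aR-/- minus WT, at the 18 probes (horizontal axis), with its 95% interval and, in orange, the range when each array is left out in turn. Filled circles mark the 8 probes with an adjusted p under 0.05, and no orange range crosses 0 except that of Fabp3 at 575.

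On each array, 33530 to 35147 of 59305 transcript spots (56.5% to 59.3%) exceeded background clearly, none was saturated, and the 75th percentile of signal was 662 to 827. C3aR-/- replicate 1 stood apart, with 145 non-uniform spots against 2 to 8 on the other arrays and a second principal component of 37.2 against -27.0 and -25.4 in the other C3aR-/- arrays. Without it, 5 of the 18 probes passed, namely the Lpl probes of the 5′ side, Mfsd2a and Fabp4 at 75. C3ar1, the gene of the deleted receptor (chr6:122798222-122798281), was well above background on 0 of 3 C3aR-/- arrays and 1 of 3 WT arrays, at -5.71 ± 0.30 in C3aR-/- and -5.60 ± 0.57 in WT cortex (SD, n = 3 each), so it gave no check of the labels.

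Other genes of the pathway were followed by lists of 123 names in 6 groups, each gene read by its brightest tested probe. Of 108 genes tested, 9 passed on the higher side and 5 on the lower side (13.0%). Over all 20418 genes read in this way, 5.97% passed higher and 6.38% lower (12.4% together), so the lists passed at about the share of all genes. The median difference of the 108 genes was 0.10. Adjusted p-values below are from limma, adjusted over all probes. With each array left out in turn, Fabp1 passed in 6 of 6 fits, Srebf1 in 5, Creb3l3 in 4, Ppard in 3 and Spns2 in 2, and the other 9 genes in 0 or 1. Over 15 settings the highest adjusted p of any of the 14 was 0.120, for Enpp2 (limma).

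Among 18 genes of LPL partners and its lipase family, 2 were higher and 0 lower, with a median difference of 0.09. Apoe, the apolipoprotein by which remnant particles are recognised, read 4.60, 4.75 and 4.35 in C3aR-/- cortex, against 3.97, 3.82 and 3.92 in WT cortex, a difference of 0.66 (adjusted p = 0.0247, limma). Lmf2, the relative of Lmf1, had a difference of 0.38 (adjusted p = 0.0296, limma). Sel1l, the ER protein that works with LMF1 in maturing LPL, had 0.51 (adjusted p = 0.0571, limma) with its other probes at -0.20 to 0.40, and did not pass.

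Of 18 lipoprotein receptors and their partners, 0 were higher and 2 lower, with a median of 0.10. Sorl1 (-0.32), a sorting receptor, and Scarb2 (0.39), a lysosomal membrane receptor, did not pass.

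Of 13 fatty acid transporters and binding proteins, 2 were higher and 0 lower, with a median of 0.12. Fabp1, the liver-type fatty acid carrier, read -1.75, -1.77 and -2.05 in C3aR-/- cortex, against -2.81, -2.63 and -2.99 in WT cortex, a difference of 0.95 (adjusted p = 0.0143, limma). Slc27a1, a fatty acid transport protein with acyl-CoA synthetase activity, had a difference of 0.53 (adjusted p = 0.0346, limma). Slc27a2 (0.18) and Cav1 (0.40) did not pass.

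Of 19 genes of lipid droplets and intracellular lipolysis, 1 was higher and 0 lower, with a median of 0.14. Differences above 0 were common over all the lists, at 68 of 108 genes, and here at 16 of 19. The share over all genes was not counted, so nothing is read from this. The gene that passed was Pnpla2, the adipose triglyceride lipase that starts the breakdown of stored triglyceride, at 3.60, 3.54 and 3.60 in C3aR-/- cortex, against 2.96, 3.15 and 3.23 in WT cortex (difference 0.47, adjusted p = 0.0283, limma). Plin2 (0.25), which coats lipid droplets, Dgat1 (0.28), which makes triglyceride, and Mgll (0.27), which splits monoglyceride, did not pass.

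Of 17 genes of lysophospholipid transport and remodelling, 1 was higher and 1 lower, with a median of -0.04. Spns2, an exporter of sphingosine 1-phosphate, read 2.72, 2.73 and 2.72 in C3aR-/- cortex, against 3.18, 3.15 and 3.10 in WT cortex, a difference of -0.42 (adjusted p = 0.0156, limma). Enpp2, the secreted enzyme autotaxin that uses lysophosphatidylcholine, had a difference of 0.38 (adjusted p = 0.0379, limma), with its other probes at 0.08 and 0.81. Lypla1 (-0.29) and Lypla2 (-0.21) did not pass, and the other 2 probes of Lypla1 had the opposite sign (0.09 and 0.28).

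Of 23 regulators of LPL, ANGPTL4 and MFSD2A, 3 were higher and 2 lower, with a median of 0.05. Creb3l3, an ER-bound factor that in liver drives genes activating LPL, read -1.14, -1.75 and -1.56 in C3aR-/- cortex, against -3.47, -3.13 and -2.80 in WT cortex, a difference of 1.65 (adjusted p = 0.0139, limma). Srebf1, the factor of fatty acid synthesis, read 2.18, 2.37 and 2.07 in C3aR-/- cortex, against 3.36, 3.06 and 3.05 in WT cortex, a difference of -0.95 (adjusted p = 0.0131, limma).

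The PPAR receptors sense fatty acids and drive Angptl4 in several tissues. Ppard read 1.31, 0.63 and 1.13 in C3aR-/- cortex, against 2.92, 2.79 and 2.24 in WT cortex, a difference of -1.63 (adjusted p = 0.0182, limma). Ppara, at 3.56, 3.57 and 3.96 in C3aR-/- cortex, against 3.20, 3.05 and 3.15 in WT cortex, had a difference of 0.57 (adjusted p = 0.0406, limma), but its other probe had 0.00 and it did not pass when any of the 6 arrays was left out. Pparg, at -1.88, -2.17 and -1.95 in C3aR-/- cortex, against -1.58, -1.59 and -1.16 in WT cortex, had a difference of -0.56 (adjusted p = 0.0592, limma) and did not pass. Whether the differences of the receptors differ from each other was not tested. Cebpa, a factor of fat and liver cells, had 0.51 (adjusted p = 0.0356, limma).

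**Figure D5:**
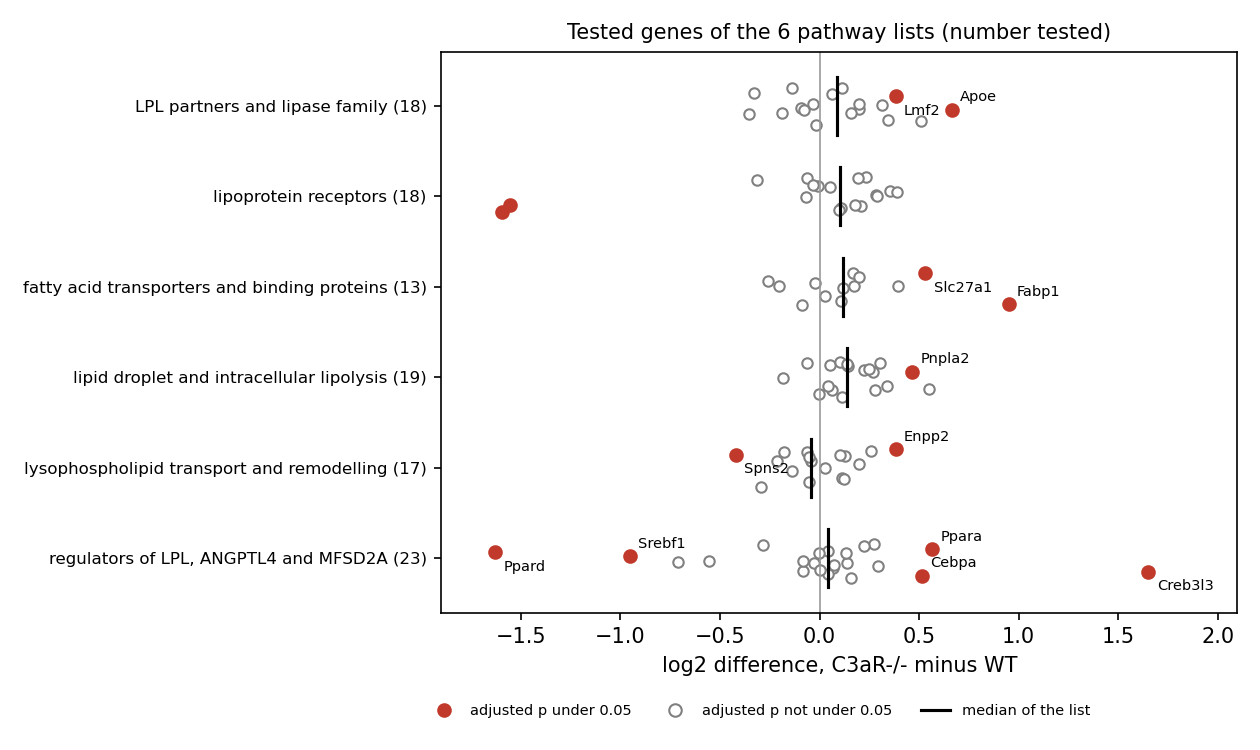
Difference in log2 signal, C3aR-/- minus WT (horizontal axis), for the 108 tested genes of the 6 pathway lists, with 1 point per gene and vertical scatter only to separate points. The 14 filled points passed, 9 of them higher and 5 lower, not all of them labelled by name, and the median of each list (black line) lies between -0.04 and 0.14.

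Genes whose pattern over the 6 arrays was most like that of Angptl4, Mfsd2a and the Lpl probe at 3484 were found by the root mean square difference of levels centred on each gene's own mean, among 15649 genes. The closest to Angptl4 were Myc (0.182), Irs2 (0.274) and Smgc (0.280). The Smgc probe, with a difference of 1.30, was well above background on only 2 of 3 WT arrays. Other Smgc probes had differences of 0.28 and 0.31. Myc read 0.07, -1.31 and 0.25 in C3aR-/- cortex, against -1.84, -1.87 and -1.84 in WT cortex, and like Angptl4 it was lowest among the C3aR-/- arrays in replicate 2. Irs2 showed this order too, at 3.65, 2.49 and 3.80 in C3aR-/- cortex, against 1.97, 2.20 and 1.63 in WT cortex. Its C3aR-/- replicate 2 was only a little above the highest WT array.

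The closest to Mfsd2a were Creg2 (0.279), Spint2 (0.315) and the pseudogene Ptma-ps2 (0.315). Creg2 was well above background on 0 of 3 C3aR-/- arrays and Spint2 on 1 of 3, with other Spint2 probes at differences of 0.00 and 0.36, so their likeness rests partly on dim signal. Ptma-ps2 was measured on all arrays, at -2.77, -3.06 and -2.89 in C3aR-/- cortex, against -0.78, -0.70 and -0.70 in WT cortex. The closest to the Lpl probe at 3484 were Gm10778 (0.0551), Zfp951 (0.0599) and Gpr3 (0.0659), all lower in every C3aR-/- array than in any WT array.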

How the data were processed

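Per the file headers, the scanner images of 6 one-colour arrays were read with Agilent Feature Extraction 10.7.1.1, and the deposited intensity of each spot had its background subtracted. The authors also deposited a log2 table, whose columns share a median of 5.38 and correlate with the log2 intensity of their own arrays at 0.995 to 0.996. Once sorted, its columns differ by at most 0.000903 at any rank, so all arrays have the same distribution, as after quantile normalization. The sources used here do not name the method, and the table served as an alternative. Coordinates (mm9) are those of the array files. Symbols of other genes were updated through RefSeq (GRCm38.p6, names only), which matched 32994 of 56605 probes by accession. The 9 genes were found by the array's own names.

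Control and outlier-flagged spots were left out, log2 intensities were set against each array's 75th percentile, and spots of 1 probe were averaged. The genotypes were set against each other by a two-sided moderated test (limma 3.58.1, R 4.3.3, functions lmFit and eBayes), a fit that was tested on simulated data. The number of arrays limits the precision. Titles of the samples gave group and replicate number. Replicate numbers did not pair arrays across genotypes (correlations of deviations 0.04, 0.01 and -0.06). The genes, lists and tests were chosen with earlier results of these data known. Named are all 9 genes with every probe, C3ar1, the 4 genes of smallest p in each pathway list, the 3 most similar patterns for 3 genes, and markers that passed or were undetected. Ppara, Pparg, Ints10, Zfp930 and the markers named outside this rule, such as Itgam, Fcgr1 and Car3, were named after their values were seen. Some genes that the rule takes are not reported here. Alternatives were other background corrections, scalings, filters, eBayes settings, a replicate block, 1 probe per gene and leaving out each array.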

Additional observations from a re-analysis of the deposited data

How the results depend on the processing

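Among the 18 probes, the only sign change under any alternative was at the Fabp3 probe at 575, which never passed. Of 15 settings, the Mfsd2a probe passed in 15, the Lpl probes at 1082 and 3736 in 14 each (all but the replicate block), Fabp4 at 75 in 11, Lpl at 2153 in 10, Lpl at 3484 and Gpihbp1 in 7 each, and Angptl4 in 6, which did not pass in the deposited log2 table or with trend and robust eBayes. The 8 probes that passed became 3 with no filter on dim probes, 2 with a replicate block and 3 to 5 with an array left out. With 1 probe per gene only 9 of the 18 probes were tested, and 4 of these passed. The Lpl probe kept there was that at 3484, so the 5′-side probes were not in that fit. The 14 pathway genes became 26 with trend and robust eBayes, 4 with no filter, 1 with a replicate block (Fabp1, the only one to pass in all 15 settings) and 2 to 7 with an array left out. Over all probes, 3612 calls became 927 with no filter, 594 with a replicate block and 600 to 1891 with an array left out. The cause of these changes was not tested. Scaling to the median put 67.6% of calls on the higher side (2662 higher, 1274 lower), against 53.0%. Replicate numbers did not pair the arrays, and only number 1 matched best with its own number. The slide could not be fitted as a block, since each slide held 1 genotype. Groups of 3 arrays were too small for an outlier test.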

Other observations

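Of the markers of nephron segments tested, 30% passed for the proximal tubule, 37.5% for the collecting duct and 25% for the thick limb and distal list. Over all genes read by their brightest probe, 12.4% passed. Whether these small lists differ from all genes was not tested. All 10 proximal tubule markers had differences above 0. Of 10 proximal tubule markers tested, 3 were higher in C3aR-/- cortex and 0 lower, the glucose transporter Slc5a2 (0.34), the lactate transporter Slc5a12 (0.73) and the neutral amino acid transporter Slc6a19 (1.12), and the summed level was 1161 to 1219 in C3aR-/- cortex and 1003 to 1077 in WT cortex. Of 8 collecting duct markers, the water channels Aqp2 (0.88) and Aqp3 (0.40) were higher and the anion exchanger Slc4a1 (-0.51) was lower, with sums of 61.8 to 69.0 in C3aR-/- cortex and 52.5 to 53.9 in WT cortex. Of 8 thick limb and distal markers, Pvalb (-0.47) and Ptger3 (-0.65) were lower, while the sums overlapped, at 279 to 301 in C3aR-/- cortex and 261 to 280 in WT cortex.

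All 7 tested B and plasma cell markers had differences below 0, and 3 passed as lower in C3aR-/- cortex, Jchain (-2.65), Mzb1 (-0.69) and Pou2af1 (-1.23). The sums were 0.900 to 1.04 in C3aR-/- cortex and 3.27 to 4.49 in WT cortex. Jchain alone came to 0.398 to 0.562 in C3aR-/- cortex and 2.54 to 3.94 in WT cortex, so the sums say little of the other markers. Cd79a was not well above background on any array. The part of either set of markers in the differences of the 9 lipid genes was not tested.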
